A study of Caenorhabditis elegans with 2 samples.

Results

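The col- genes of Caenorhabditis elegans, 156 of the 19973 protein-coding genes on the nuclear chromosomes, were examined for regions precipitated with SOX-4-eGFP in first-stage (L1) larvae. Members were all protein-coding genes of the Ensembl WBcel235 annotation whose symbol starts with col-. Chromosome IV carried 41 of them, V 31, X 27, II 24, I 21 and III 12. Membership rests on the gene symbol alone, although the group was picked for study with earlier results of these data known.

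Most col- genes encode cuticle collagens, short secreted proteins built around Gly-X-Y repeats that the epidermis assembles into the external cuticle. The cuticle is replaced at each larval molt, and individual collagen genes are transcribed in pulses tied to the molting cycle. Some are used at only some stages, such as col-19 in the adult. The name also covers col-99, a transmembrane collagen that is not a typical cuticle component. SOX-4 is a Sox-family protein with an HMG-box DNA-binding domain.

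All data came from 1 group of 2 biological replicates, hermaphrodites of strain OP517, genotype unc-119(tm4063) III; wgIs517. Both replicates carried a transgene encoding SOX-4 tagged at its C terminus with GFP-FLAG, and both were collected as L1 larvae 6 hours after synchronization by starvation after bleaching. Chromatin of whole animals was precipitated with an anti-GFP antibody, so epidermal chromatin was not separated from that of other tissues. Animals without the tagged protein were not analysed here, and whether a region depended on SOX-4 was not tested. The authors' files held 30000 regions called on both replicates together (the pooled list, which includes background), 30000 for each replicate alone, and 1497 that passed their reproducibility filter (the optimal list). The optimal regions were the 1497 of highest signal in the pooled list. Read depth was unknown.

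A gene was credited with a region when the summit was at most 1000 bp upstream or 200 bp downstream of the annotated 5′ end. By this rule 35 of 156 col- genes held a pooled region, or 22.4% (exact 95% interval 16.2 to 29.8). Among the 19817 other coding genes the share was 37.9%. Of the 35, 4 held a region of the optimal list (11.4%, exact 95% interval 3.20 to 26.7), against 15.0% of the other coding genes with a pooled region. Taken over all members these 4 were 2.56% (exact 95% interval 0.703 to 6.43), against 5.70% of all other coding genes. Genes are not replicates, so the intervals cover the counting of genes only, and no test of the list was made.

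**Figure D1:**
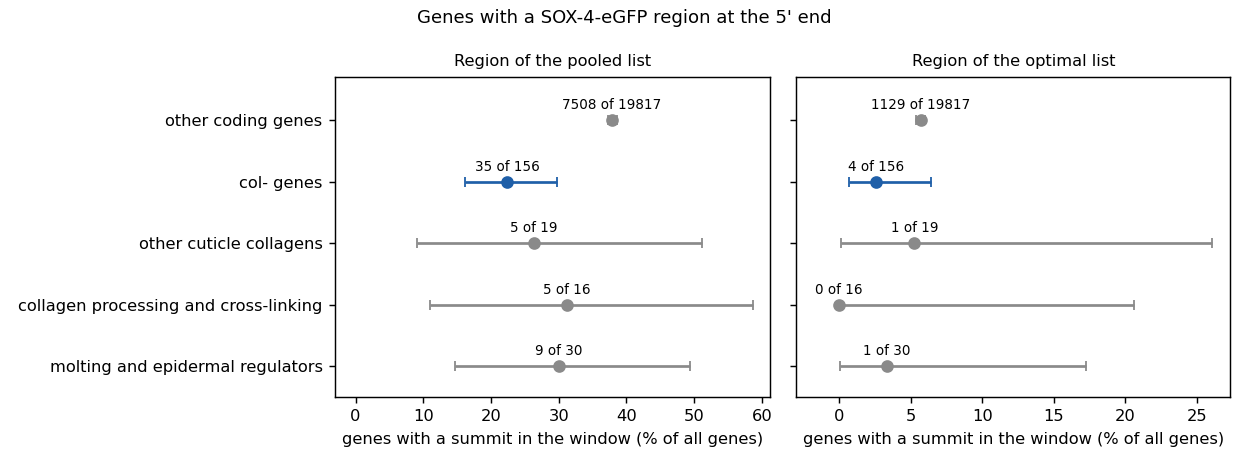
Share of genes (%, x axis) with a summit in the window in the pooled list (left) and the optimal list (right), for col- genes, other coding genes and 3 lists of related genes. Points are shares, bars exact 95% intervals over genes, and the labels give the counts, 35 of 156 and 4 of 156 for the col- genes.

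The lower share of pooled regions was also seen in each replicate's own list. A region of replicate 1 lay in the window of 40 col- genes (25.6%), against 37.6% of other coding genes. A region of replicate 2 lay there in 39 (25.0%), against 38.9%. Both replicates had one in 14 (8.97%), against 23.0%. No region of any of the 3 lists was found at 89 of the 156 (57.1%), against 44.3% of other coding genes. The remaining 32 col- genes without a pooled region had a region in 1 or both replicate lists, 18 in replicate 1 alone, 11 in replicate 2 alone and 3 in both.

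The strongest regions, those of the optimal list, lay at col-71, col-38, col-148 and, least strong, col-63. For none of them was the col- gene the one whose 5′ end was nearest to the summit, while another gene's 5′ end was nearer for 38.7% of the other coding genes with an optimal region (437 of 1129). The sequences of the 101 bases centred on the summit are given for 3 of the 4, and for the next 2 in pooled signal, at ranks 3617 and 3772, to show the DNA at the centre of the regions described in full. The col-63 window is not printed. They were read from the RefSeq copy of WBcel235 (ce11), on the strand of the col- gene from 5′ to 3′. Capitals mark a match to 1 of the 7 motifs described later. The windows are chrII:3502780-3502880 (minus strand) for col-71, chrII:8569469-8569569 (minus) for col-38, chrV:10241265-10241365 (plus) for col-148, chrIV:4658492-4658592 (minus) for col-111 and chrX:13511965-13512065 (minus) for col-185. None of them overlapped an annotated untranslated region.
col-71: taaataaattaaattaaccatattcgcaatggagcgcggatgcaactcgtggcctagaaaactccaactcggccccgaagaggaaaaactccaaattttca
col-38: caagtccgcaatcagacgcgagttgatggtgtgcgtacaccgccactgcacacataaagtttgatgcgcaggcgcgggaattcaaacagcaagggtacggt
col-148: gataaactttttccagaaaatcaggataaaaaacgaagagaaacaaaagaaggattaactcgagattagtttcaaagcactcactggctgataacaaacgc
col-111: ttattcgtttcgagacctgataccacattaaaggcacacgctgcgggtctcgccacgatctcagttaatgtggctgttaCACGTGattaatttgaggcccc
col-185: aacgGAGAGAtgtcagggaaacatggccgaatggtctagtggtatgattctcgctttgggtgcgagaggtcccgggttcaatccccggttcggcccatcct
The first 3 hold no match to any of the 7 motifs, which says only that those letters are absent from these windows. The col-63 window, the other one of the optimal list, holds 1 match each to the short Sox core, its longer form and the GATA-factor site, spelled out with the motif results. The col-185 window has its summit inside an annotated tRNA gene.

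The strongest region of the group was at col-71, with a pooled signal of 116.2 (the authors' value per region) and rank 358. Its rank was 275 in replicate 1, with a signal of 69.5, and 536 in replicate 2, with a signal of 48.2. It was thus well inside the 1497 strongest regions of each replicate. The region was short, 106 bp from 3502780 to 3502885 on chromosome II, where the other 3 were 396 bp wide. Its summit was in intergenic sequence 260 bp upstream of col-71, which reads leftward, and 138 bp from the 5′ end of Y49F6B.2, which reads rightward. The region therefore lay between divergent starts and counted for both genes.

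The col-38 region (II from 8569321 to 8569716) had a pooled signal of 63.0 and rank 1062. In replicate 1 it had a signal of 33.1 and rank 1117. In replicate 2 it had a signal of 29.1 and rank 1396. Both ranks were inside the strongest 1497 of their lists. The summit was 431 bp upstream of col-38, 408 bp from the 5′ end of rpl-5, the divergent gene for a protein of the large ribosomal subunit, and 43 bp from that of the noncoding RNA gene F54C9.17. The summit lay inside F54C9.17 and inside the overlapping noncoding gene F54C9.16.

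At col-148 the region (V from 10241117 to 10241512) had a pooled signal of 59.0 and rank 1174. Its signal was 29.0 in replicate 1, at rank 1423, and 31.0 in replicate 2, at rank 1226. The summit again lay between divergent starts, 438 bp upstream of col-148 and 127 bp from the 5′ end of the coding gene C12D8.21. The region itself covered the C12D8.21 start, at 10241188.

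The weakest of the 4, at col-63 (I from 8245291 to 8245686), had a pooled signal of 53.3 and rank 1395, close to the lowest signal of the optimal list, 51.3. It ranked 1271 in replicate 1 (signal 31.1) and 1886 in replicate 2 (signal 25.1), outside the strongest 1497 there. The summit was 526 bp upstream of col-63, which was the nearest coding gene, but 133 bp from the 5′ end of the noncoding RNA gene ZK265.11. Of the 4 regions this was the only one that lay in the window of no other coding gene.

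**Figure D2:**
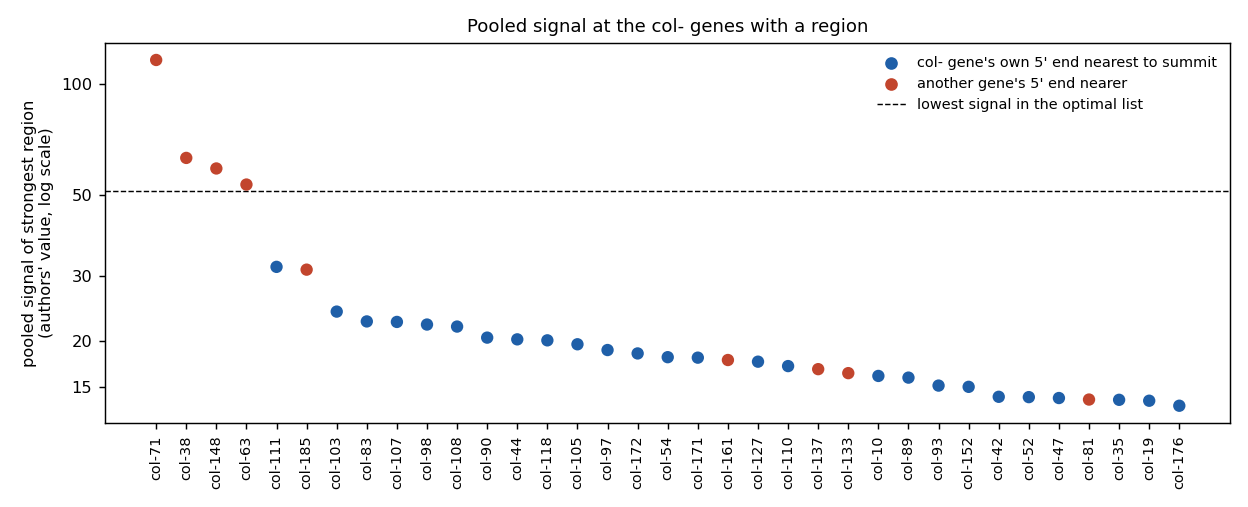
Pooled signal (the authors' value, log scale, y axis) of the strongest region at each of the 35 col- genes that held one, in descending order. Red points have another gene's 5′ end nearer to the summit, blue points their own, and the dashed line is the lowest signal of the optimal list, 51.3; all 4 points above it are red.

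Below these 4, signals dropped to 31.9 at col-111 and 31.3 at col-185, with no col- gene between ranks 1395 and 3617. The col-111 region (rank 3617, IV from 4658344 to 4658739) was intergenic, 568 bp upstream of col-111, which was the nearest gene. It was the strongest region in the group for which the col- gene's own 5′ end was nearest. Its rank was 3641 in replicate 1 (signal 19.3) but 19650 in replicate 2 (signal 9.92), so the replicates placed it very differently.

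The col-185 region (rank 3772, X from 13511817 to 13512212) ranked 9261 in replicate 1 (signal 14.0) and 6278 in replicate 2 (signal 15.5). Its summit was 918 bp upstream of col-185, near the far edge of the window, and lay inside the tRNA gene WBGene00014413, 26 bp from its 5′ end. Both replicates held this region at middle ranks, and the tRNA start was the closest one.

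The other 29 regions were weaker than rank 5000, from rank 7514 at col-103 (signal 24.1) to 28387 at col-176 (signal 13.4). Several lay in introns of other genes. The summit assigned to col-103 was 661 bp upstream in an intron of F56B3.2, that of col-83 (signal 22.6, rank 8892) 816 bp upstream in an intron of F33A8.4, and that of col-107 (signal 22.6, rank 8977) 303 bp upstream in an intron of C34H4.5. Replicate 1 had no overlapping region at col-103 or col-83, where replicate 2 had ranks 3921 and 5149. At col-107 the ranks were 12691 and 26137.

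The remaining members of the 12 strongest were intergenic. The col-98 region (signal 22.2, rank 9401) lay 639 bp upstream and overlapped a region of replicate 1 at rank 8516 but none of replicate 2. The col-108 region (signal 21.9, rank 9702) lay 733 bp upstream, with ranks 20611 and 22747 in replicates 1 and 2. The col-90 region (signal 20.5, rank 11586) lay 766 bp upstream and was found in replicate 2 alone, at rank 20094. For these 6 weaker genes the col- 5′ end was the nearest start, and their best rank in a replicate list was 3921.

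In descending order of pooled signal, the other 23 genes with a region were col-44, col-118, col-105, col-97, col-172, col-54, col-171, col-161, col-127, col-110, col-137, col-133, col-10, col-89, col-93, col-152, col-42, col-52, col-47, col-81, col-35, col-19 and col-176. Their signals ran from 20.2 at col-44 to 13.4 at col-176. The adult collagen gene col-19 was near the bottom, at rank 26925 of 30000 with a signal of 13.8, and its summit was 720 bp upstream in an intron of ZK1193.2. The transmembrane collagen gene col-99 had no pooled region in its window, although 3 pooled summits lay within the gene.

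Over the 35 genes the median pooled rank was 15595 (quartiles 9189 and 21582), and over the 7508 other coding genes with a pooled region 10274 (3259 and 19406). The median signal was 18.1 against 21.5. Of the col- genes, 18 of 35 (51.4%) were weaker than rank 15000, against 36.5% of the others, and 2 of 35 (5.71%) ranked between the end of the optimal list and 5000, against 17.7%.

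**Figure D3:**
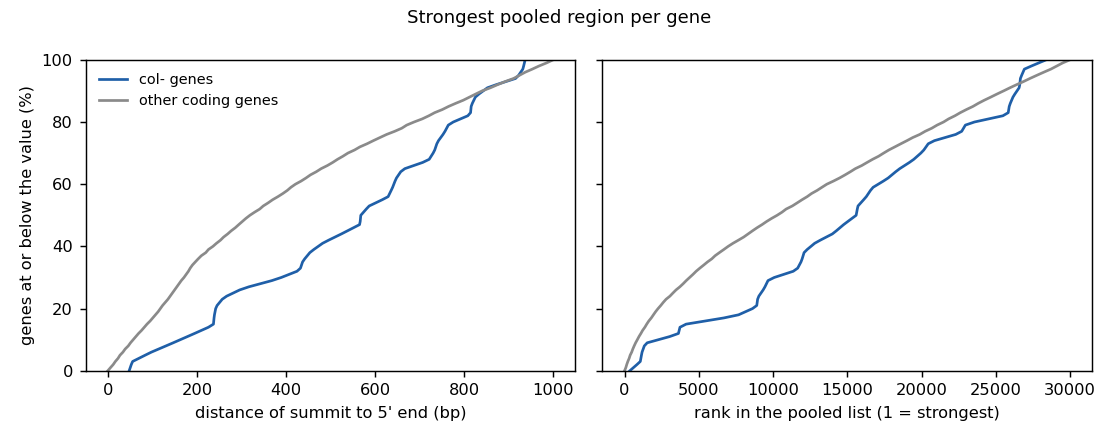
Cumulative share of genes (%, y axis) by distance from summit to 5′ end (bp, left) and by rank in the pooled list (right), for the strongest pooled region of 35 col- genes (blue) and 7508 other coding genes (grey). The col- curve runs to the right of the other over most of both plots, with medians of 568 against 319 bp and of ranks 15595 against 10274.

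Summits were farther from col- 5′ ends than from those of other genes. The median distance was 568 bp (quartiles 282 and 748), against 319 bp (145 and 611) for other coding genes with a pooled region. Within 500 bp of the 5′ end lay 15 of 35 summits (42.9%, exact 95% interval 26.3 to 60.6), against 66.6% (65.5 to 67.7). Upstream of the 5′ end lay 31 of 35 (88.6%), much as elsewhere (88.0%). The 4 downstream summits were at col-10, col-35, col-152 and col-52, all within the gene itself and all at rank 20091 or weaker. At the 4 optimal regions the distances were 260 to 526 bp, with a median of 434.5 bp, against 237 bp at other genes with an optimal region.

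Another gene's 5′ end was nearer to the summit for 9 of the 35 col- genes (25.7%), close to the 26.6% of other coding genes. The 9 were the 4 optimal genes, col-185, col-161, col-137, col-133 and col-81. The nearer gene was coding for col-71, col-148 and col-161, a noncoding RNA gene for col-38, col-63 and col-81, a piRNA gene for col-137 and col-133, and a tRNA gene for col-185. Of the 26 summits nearest to the col- gene itself, none was in the optimal list, which allows a share of up to 13.2% (upper end of the exact 95% interval). Among the other coding genes whose own 5′ end was nearest, 12.6% were.

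**Figure D4:**
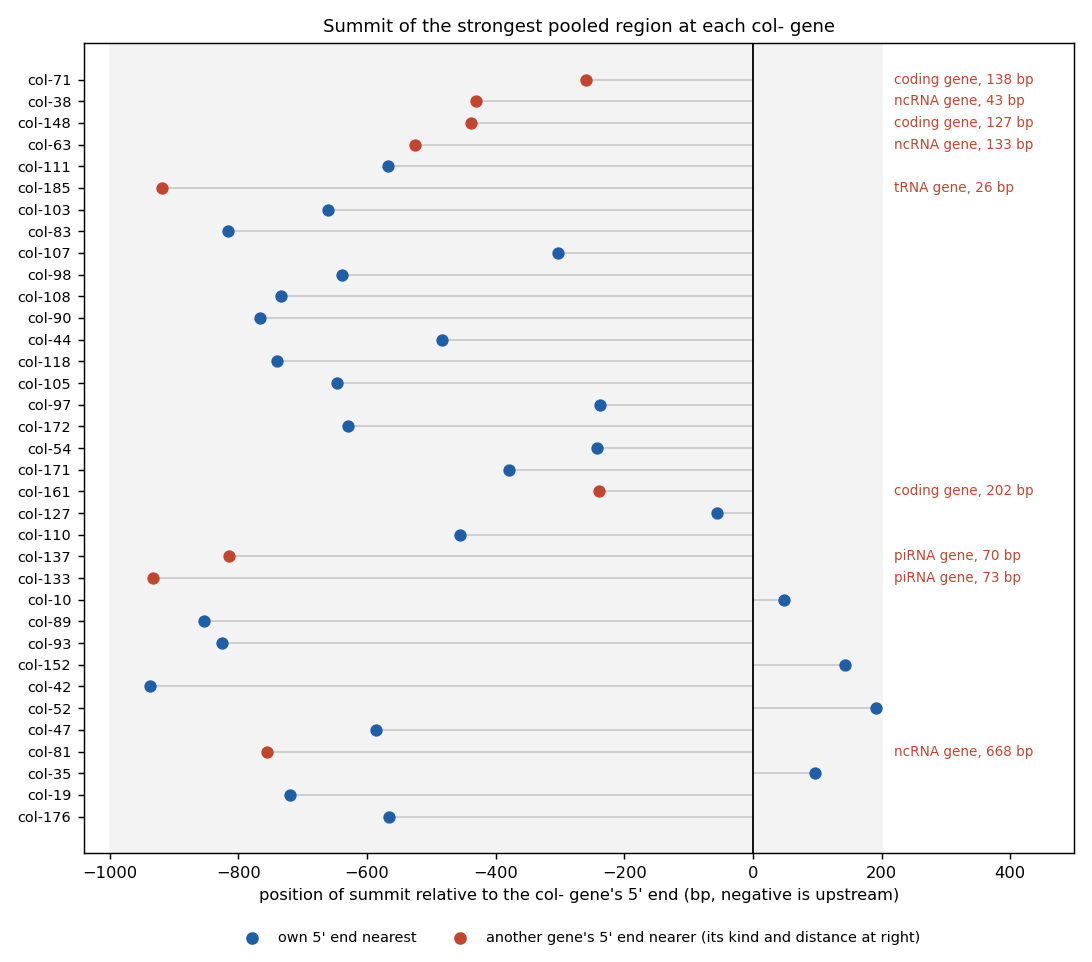
Position of the strongest pooled summit relative to the col- gene's 5′ end (bp, x axis; negative is upstream), 1 row per gene in descending order of pooled signal, with the window shaded. Red points have another gene's 5′ end nearer, with its kind and distance at the right, and include all of the first 4 rows.

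By annotation, 22 of the 35 summits were intergenic (62.9%, against 69.6% of other coding genes) and 7 were in introns (20.0% against 9.20%). Coding exons held 4 (11.4% against 10.7%) and noncoding genes 2 (5.71% against 2.57%). The introns belonged to another gene in 5 cases and to col-152 and col-52 themselves in the other 2. Of the coding-exon summits, those of col-10 and col-35 were in their own exons. The summit of col-44 was in an exon of col-9, and that of col-47 in an exon of col-46, so both fell in a neighbouring collagen gene. Inside gene bodies, 43 of the 156 col- genes held a pooled summit and none an optimal one. This count was not made for other coding genes, so it has no share to stand beside. Gene bodies also differ in size, with a median length of 1220 bp for col- genes and 2038 bp for other coding genes.

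Fewer col- genes than other genes had a divergent coding start within 1000 bp upstream, 19 of 156 (12.2%) against 17.8%. Of the 4 such col- genes with a pooled region, 3 had an optimal one, namely col-38, col-71 and col-148. Of the 31 with a pooled region and no divergent start, 1 had an optimal one (3.23%). The corresponding shares for other coding genes were 31.2% and 10.3%. The share of other coding genes with a pooled region was 37.2% when reweighted to the col- genes' mix of divergent and other starts, and 38.3% when reweighted to their chromosomes, beside 22.4% of the col- genes. The share of those regions in the optimal list, 15.0% as measured, became 12.7% at the mix of starts of the 35 col- genes with a pooled region, beside 11.4% of the col- genes. By chromosome, pooled regions were at 5 of 12 col- genes on III (41.7%, against 44.2% of others there), and elsewhere at 16.1% (V) to 24.4% (IV), where other coding genes had 26.9% (II) to 41.8% (I). The optimal regions were on II (2), V and I.

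Many col- genes lie in groups. For 50 of the 156 another col- 5′ end was within 5 kb, and 7 of these 50 held a pooled region, compared with 28 of the other 106. No 2 col- genes shared their strongest region. Of the 156, 4 had an optimal summit within 1000 bp of the 5′ end on either side. That count is not given for other coding genes, so it has no share to stand beside. The median distance from a col- 5′ end to the nearest optimal summit was 25884 bp, against 27551 bp for other coding genes.

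The replicates agreed on fewer of the weak regions at col- genes. Of the 35 pooled regions, 17 overlapped a region of replicate 1 by at least 1 bp (48.6%, against 72.2% at other coding genes) and 25 one of replicate 2 (71.4% against 74.6%). Both replicates had an overlapping region at 11 (31.4%, exact 95% interval 16.9 to 49.3, against 52.6%). Neither had one at 4 (11.4%, exact 95% interval 3.20 to 26.7, against 5.78%), namely col-54, col-127, col-10 and col-52. All 4 optimal regions were in both replicates, which the authors' reproducibility filter had largely fixed in advance. Of the 31 weaker ones 7 were in both, or 22.6%, against 44.2% at other genes below the optimal list. The 31 also had lower signals than those others, with a median pooled rank of 16263 against 12760. Agreement at like signal was not compared. The pooled list was called on the same reads, so the overlap is not independent of it.

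**Figure D5:**
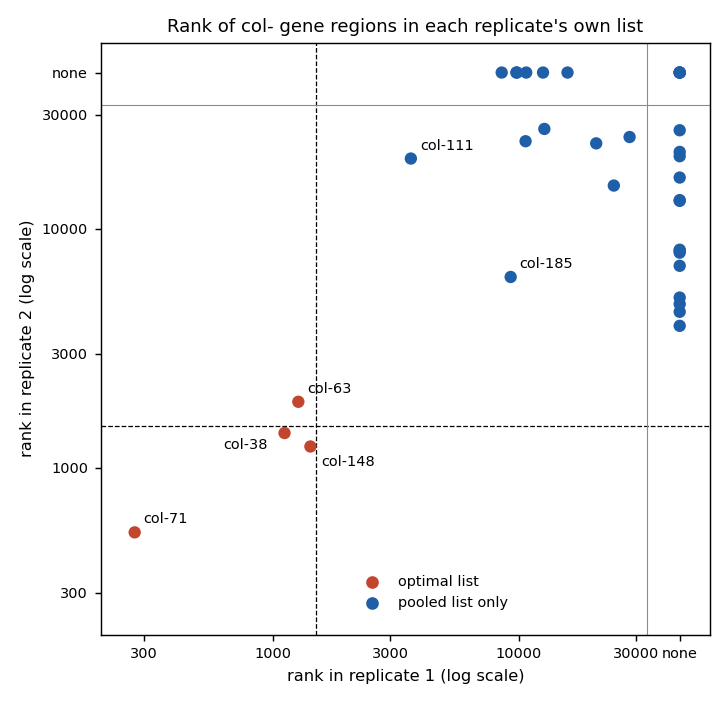
Rank of the region overlapping each col- gene's pooled region in replicate 1 (x axis, log scale) and replicate 2 (y axis, log scale), with "none" where no region overlapped. Dashed lines mark rank 1497. The 4 optimal regions (red) ranked 275 to 1423 in replicate 1 and 536 to 1886 in replicate 2, apart from all 31 others (blue). The red regions were selected by the authors' reproducibility filter.

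The 7 short motifs were searched on both strands within 50 bp of each summit, where matches of different motifs may overlap. The Sox core ACAAT was present at 5 of 35 col- summits (14.3%), against 27.4% at other coding genes and 28.7% of all 30000 pooled regions. With 100 bp on each side of the summit the shares were 45.7% and 48.4%. The 5 within 50 bp were at col-63, col-107, col-172, col-176 and col-35. Of the 4 optimal regions 1 thus held ACAAT, against 23.7% of other genes with an optimal region. The longer form AACAAAG was at 1 (2.86% against 2.46%), again col-63, which also held the GATA-factor site AGATAA (2 of 35 in all, against 6.42%). E-boxes, CANNTG, were at 11 (31.4% against 32.0%) and at none of the 4 optimal regions, against 35.8% of other genes with an optimal region.

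GAGAGA repeats were at 2 col- summits, col-185 and col-98 (5.71% against 8.94%), and at none of the 4 optimal regions, against 16.3% of other genes with an optimal region. The nuclear receptor half-site AGGTCA was at 1 (against 1.93%) and the Blimp-1 type motif TTTCACTTT at 0 (against 0.559%). Among all 30000 pooled regions these shares were 1.96% for AACAAAG, 6.64% for AGATAA, 30.5% for CANNTG, 6.69% for GAGAGA, 2.07% for AGGTCA and 0.677% for TTTCACTTT. The 101 bases around the summit had a median GC content of 28.7% at col- genes and 33.7% at other coding genes. At the optimal regions it was 54.5% at col-38, 41.6% at col-71, 34.7% at col-148 and 23.8% at col-63, where other genes with an optimal region had a median of 46.5%.

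Other genes of cuticle formation were read the same way. Beside each list below stand the shares of all coding genes other than col- genes, which include these lists. Those were 37.9% with a pooled region and 5.70% with an optimal one. Of 19 cuticle collagen genes with names other than col-, 5 held a pooled region (26.3%) and 1 an optimal one (5.26%). The latter was dpy-8, a collagen of the annular furrows. The dpy-8 region (signal 60.3, rank 1139) had its summit 192 bp downstream of the 5′ end, with dpy-8 the nearest start, unlike the 4 optimal regions at col- genes. Its ranks were 15325 in replicate 1 and 489 in replicate 2. The other 4 were dpy-4 (signal 26.1), sqt-2 (17.8), dpy-10 (16.9) and dpy-13 (13.0). For sqt-2 and dpy-13 another gene's 5′ end was nearer to the summit, that of C01B12.10 and zipt-2.2.

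Of 16 genes for collagen processing and cross-linking, 5 held a pooled region (31.3%) and none an optimal one. The strongest was pdi-6, a protein disulfide isomerase gene (signal 29.5, rank 4346, 68 bp upstream), with ranks of 4835 and 9042 in replicates 1 and 2. The others were pdi-1 (signal 22.3), bli-3 (21.3), nas-37 (14.6) and dpy-18 (13.9), the last encoding a prolyl 4-hydroxylase subunit. The pdi-1 summit was nearer to the 5′ end of C14B1.2, at 130 bp, than to that of pdi-1.

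Of 30 molting and epidermal regulators, 9 held a pooled region (30.0%) and 1 an optimal one (3.33%). The latter was myrf-1, which encodes a membrane-bound transcription factor needed for larval development. The myrf-1 region (signal 79.1, rank 687) ranked 1035 in replicate 1 and 544 in replicate 2. Its summit was 256 bp upstream of myrf-1 and 145 bp from F59B10.7, so here too another start was nearer. The other 8 were mlt-3 (signal 29.4), nekl-3 (26.4), nhr-23 (25.6), myrf-2 (21.4), nhr-25 (18.0), grh-1 (16.1), mlt-10 (14.2) and nekl-2 (13.5), with nhr-23 and nhr-25 encoding nuclear receptors. For mlt-3 and myrf-2 as well another start was nearer, that of 21ur-12482 and F44A6.7. None of the 3 basement membrane collagen genes emb-9, let-2 and cle-1 held a pooled region.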

How the data were processed

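ChIP-seq regions of 2 biological replicates were used as deposited. Per the file notes, the authors called regions against a control alignment for each replicate and for both together, and derived the optimal list from these by the irreproducible discovery rate. Neither the caller nor its threshold is given in the sources used here. The deposited signal per region, whose scale is not stated, was used for ranks and description inside each list. Read depth is unknown, so no interval covers it.

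Gene positions came from Ensembl release 115 (WBcel235, the sequence of ce11), without pseudogenes for neighbouring starts. Lists on ce10 were not used here. Coordinates are 1-based. Where a window held several regions, the strongest was described. A distance is from the summit to the gene's annotated 5′ end, which in worms can differ from the transcription start because of trans-splicing. Shares have exact (Clopper-Pearson) 95% intervals. With 1 group there was no comparison between conditions and no p-value.

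Values were given for every col- gene with an optimal region and the 12 with the highest pooled signal. In the 4 related lists they were given for each gene with an optimal region and the strongest. For the other listed genes that held a region, only the pooled signal and any nearer start were given. The members and lists were chosen with earlier results of these data known. Window, nearest-start, overlap and motif routines were tested on simulated data with planted regions and returned all of them. Software was pandas 2.3.3, numpy 2.4.6, scipy 1.17.1 and matplotlib 3.10.9 under Python 3.11.15.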

Additional observations from a re-analysis of the deposited data

How the results depend on the processing

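The count of 4 col- genes with an optimal region rested on the assignment. It was 1 with each summit given to its nearest coding 5′ end. Among genes with a pooled region this was 3.23%, against 12.4% of other coding genes, where the main rule gave 11.4% and 15.0%. With the nearest 5′ end of any gene it was 0 (0% against 12.1%), and in the stronger 748 optimal regions 1 (2.86% against 9.02%). For regions in the window of 1 coding gene only, an alternative chosen after seeing the data, it was 1 (3.23% against 8.93%). The optimal list needs both replicates, so it could not be rebuilt with 1 left out. The strongest regions of the other replicate's own list, as many as the optimal list holds, were counted in its place. They lay at 3 col- genes without replicate 1 and at 4 without replicate 2. Among genes with a region in that replicate's list these were 7.69% (against 13.9% of other coding genes) and 10% (against 14.6%). The other alternatives gave 3 to 5. The 35 col- genes with a pooled region became 16 with a window of 500 bp upstream to 100 bp downstream (10.3%, against 25.2% of other coding genes). Leaving out each replicate gave 39 to 40, the counts of the other replicate's own list given above, and the remaining alternatives 26 to 51. In all 10 alternatives for this count the share stayed below that of other coding genes, from 10.3% against 25.2% to 32.7% against 50.4%. The share of these genes with an optimal region was above that of other coding genes in 1 alternative, 18.8% against 18.0% with the 500 bp window. RefSeq symbols, also chosen after seeing the data, named the same 156 genes.

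Regions in both replicates fell from 11 to 7 when replicate summits had to lie within 100 bp. The share went from 31.4% to 20.0%, and that of other coding genes from 52.6% to 34.8%. Counting coding genes only, another 5′ end was nearer at 4 genes in place of 9. The share went from 25.7% to 11.4%, and that of other coding genes from 26.6% to 17.0%. With 100 bp on each side of the summit, ACAAT was at 16 of 35 (45.7%, against 48.4%). AACAAAG was at 2 (5.71%, against 5.07% of other coding genes), GAGAGA at 5 (14.3% against 15.8%) and AGATAA at 4 (11.4% against 12.7%). AGGTCA was at 2 (5.71% against 3.85%) and TTTCACTTT at 1 (2.86% against 1.29%). Without read depth, a gene with no region was one where none was detectable, not one shown to lack binding. No paired analysis was possible because there was only 1 group.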

Other observations

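Replicate regions at some col- genes had no counterpart in the pooled list, and the genes named here were chosen after their values were seen. At col-2, a collagen gene associated with the dauer stage, replicate 1 had a region of rank 1520 (signal 27.9, summit 480 bp upstream) and replicate 2 one of rank 4822 (signal 17.0, 420 bp upstream). Neither overlapped a pooled region, and the nearest pooled summit was 1087 bp from that of replicate 2, downstream of the 5′ end of col-2. Of the 5000 strongest regions of replicate 1, 233 (4.66%) overlapped no pooled region, and 30 of those overlapped a region of rank 5000 or better in replicate 2. At col-8, replicate 2 alone had a region of rank 1580 (signal 27.4, 852 bp upstream in an intron of rfl-1), with the nearest pooled summit 20436 bp away. Both col-2 and col-8 had a divergent coding start within 1000 bp upstream. Which 5′ end was nearer to these replicate summits was not determined. In replicate 2, 4.25% of the nuclear regions to rank 5000 overlapped no pooled region. To rank 1497 the shares were 1.00% in replicate 1 and 1.21% in replicate 2. The reason for these absences from the pooled list was not tested.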
